A study of Mus musculus with 2 samples.

Results

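Folr2, Lyve1, Cd163, Mrc1, Timd4, Fcrls, Cbr2, Pf4 and Retnla are 9 genes associated with tissue-resident or alternatively activated macrophages. They were followed here in single cells of ovarian tumors grown in WT and TSK mice. The 9 genes, of 32285 in the count tables, were chosen by measured UMI levels in these same libraries, with their differences between WT and TSK known, so every difference between the libraries in them is a description and carries no test. They were described in C1q cells, the cells with at least 3 UMIs (unique molecular identifiers, each marking 1 captured RNA molecule) of C1qa, C1qb and C1qc together, which encode the chains of complement C1q and are a hallmark of tissue macrophages. C1q cells were 193 of 1442 WT cells (13.4%, 95% exact binomial interval 11.7% to 15.3%) and 377 of 2961 TSK cells (12.7%, 11.6% to 14.0%). Together they were 570 of 4403 cells. The cells just outside and just inside the limit were few. The 19 WT and 31 TSK cells with 2 C1q UMIs held 62 and 36 UMIs of the 9 genes, and the 3 WT and 19 TSK cells with 3 C1q UMIs held 2 and 151.

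The tumors were grown under the skin of the flanks from SO cells, a syngeneic mouse ovarian cancer line made with loss of p53 and added Myc and H-ras, in female C57BL/6 mice of 6 to 8 weeks. The WT library came from the pooled tumors of 4 mice without the mutation. The TSK library came from the pooled tumors of 4 tight skin mice, which carry a duplication of exons within 1 allele of Fbn1, the gene of the extracellular matrix protein fibrillin-1, in every cell of the host from development on. The injected cancer cells were of the same line in both genotypes. No cell type was selected before capture, and red blood cells and dead cells were depleted in both pools. The pools leave 1 library per genotype, so mice cannot be told apart, genotype cannot be separated from library, and no test between genotypes was possible. The intervals below cover counting error only.

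Resident macrophages are seeded in many tissues before birth or soon after, sit along vessels and in connective tissue, and clear dying cells, hemoglobin and matrix fragments through endocytic receptors. Alternative activation is the state that macrophages enter under interleukin-4 and interleukin-13, whose receptors act through the transcription factor STAT6. In mice Retnla and Mrc1 are classical genes of that state. Folr2, Lyve1, Cd163 and Timd4 are used to mark resident and perivascular macrophages.

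In all, 2332 WT barcodes held 21225411 UMIs and 4436 TSK barcodes held 48296765. C1q cells were deeper in the WT library, with a median of 13156 UMIs per cell against 8067 in the TSK library, and held 2887442 and 3686401 UMIs in all. All 9 macrophage markers, such as Csf1r and Adgre1, were detected in the C1q cells of both libraries, and clustering placed 184 WT and 346 TSK ones in macrophage-like clusters. Another 2 WT and 21 TSK cells fell in cancer cell-like clusters. Barcodes present in both libraries (263) were left out before any count. Levels are given in CPM, UMIs of the gene per 1000000 UMIs of the cells, and ratios as log2 of TSK over WT with an exact conditional interval. Over 8839 genes that reached 50 UMIs the median log2 ratio was 0.23, and scaling by the median of gene ratios (5850 genes) would lower every ratio by 0.13. T cell-like cells, which should lack these genes, gave the level set by free RNA. Their share with a UMI was at most 2.12% in 520 WT cells (median 6668 UMIs) and at most 2.20% in 363 TSK cells (median 2629 UMIs), in both for Mrc1.

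Lyve1 (ENSMUSG00000030787, chr7:110850607-110863239, minus strand, GRCm38) encodes a hyaluronan receptor of lymphatic endothelium and perivascular macrophages. It had 22 UMIs in 8 WT C1q cells, 7.62 CPM, and 425 UMIs in 60 TSK C1q cells, 115 CPM. The TSK level was higher by 3.92 on the log2 scale (95% interval 3.30 to 4.61), the widest gap among the 9 genes. A single WT cell held 36.4% of the WT UMIs. At an equal depth of 1000 UMIs per cell, Lyve1 had a UMI left in 0 of 189 WT cells, which allows a share of up to 1.59% with a UMI at that depth and sets no limit on the cells that express it, and in 9.80% of 357 TSK cells. At full depth the shares were 4.15% and 15.9%. Lymphatic endothelial markers were nearly absent from these cells, with 5 WT and 3 TSK UMIs.

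Cd163 (ENSMUSG00000008845, chr6:124304656-124330527, plus strand), the receptor for hemoglobin bound to haptoglobin, had 56 UMIs, spread over 8 cells, in WT and 268, spread over 51 cells, in TSK. The log2 ratio of its levels, 19.4 and 72.7 CPM, was 1.91 (1.49 to 2.35). In the WT library 3 cells held 73.2% of its UMIs, and in the TSK library 3 cells held 26.5%. Folr2 (ENSMUSG00000032725, chr7:101839988-101857194, minus strand), a folate receptor of macrophages, was more widely detected, in 48 WT cells (24.9%, 18.9% to 31.6%) and 166 TSK cells (44.0%, 39.0% to 49.2%). The WT level was 73.4 CPM (212 UMIs, 63.9 to 84.0 CPM) and the TSK level 180 CPM (665 UMIs, 167 to 195 CPM), which gives a log2 ratio of 1.30 (1.07 to 1.53). For Lyve1, Cd163 and Folr2 the counting intervals of the libraries did not overlap. The share of all genes for which this holds is not given, so nothing is read from it.

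Mrc1 (ENSMUSG00000026712, chr2:14229392-14332057, plus strand), the mannose receptor, was the most abundant of the 9 genes and the only one with a lower level in the TSK library. WT C1q cells had 1364 CPM (3939 UMIs, 167 cells with a UMI) and TSK C1q cells 1166 CPM (4300 UMIs, 272 cells), and the log2 ratio was -0.23 (-0.29 to -0.16). The direction did not hold under other choices of cells: the log2 ratio was 0.23 in all cells of the macrophage-like clusters and 0.03 without the C1q cells of cancer cell-like clusters. Timd4 (ENSMUSG00000055546, chr11:46810800-46844332, plus strand), a receptor for phosphatidylserine on dying cells, was the scarcest, with 13 UMIs in 5 WT and 32 UMIs in 14 TSK cells. Its levels of 4.50 and 8.68 CPM had overlapping intervals, and the log2 ratio was 0.95 (-0.02 to 2.0).

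Fcrls (ENSMUSG00000015852, chr3:87250758-87263738, minus strand), an Fc receptor-like scavenger receptor best known from microglia, stood at 40.9 CPM in WT (118 UMIs in 35 cells) and at 98.7 CPM in TSK (364 UMIs in 119 cells), which gives 1.27 on the log2 scale (0.97 to 1.58). Cbr2 (ENSMUSG00000025150, chr11:120729489-120732114, minus strand), a carbonyl reductase, stood at 80.0 CPM (231 UMIs in 37 cells) and 129 CPM (475 UMIs in 99 cells), apart by 0.69 (0.46 to 0.92). Both were higher in the TSK library, Cbr2 by less than 2-fold. In WT, 3 cells held 33.9% of the Fcrls and 26.0% of the Cbr2 UMIs, and the intervals do not allow for such clumping.

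Pf4 (ENSMUSG00000029373, chr5:90772435-90773383, plus strand) encodes platelet factor 4, also named Cxcl4, a chemokine stored in platelet granules and also made by some macrophages. It had 268 UMIs in 62 WT C1q cells (32.1%, 25.6% to 39.2%) and 2070 UMIs in 216 TSK C1q cells (57.3%, 52.1% to 62.3%). Its level was 92.8 CPM in WT (82.0 to 105) and 562 CPM in TSK (538 to 586), for a log2 ratio of 2.60 (2.41 to 2.79), and at 1000 UMIs per cell the shares were 8.47% and 30.0%. Platelet and megakaryocyte markers also had more UMIs in the TSK C1q cells (86 of 6 detected genes, 23.3 CPM) than in the WT C1q cells (20 of 5 detected genes, 6.93 CPM). The marker Clec1b gave 57 of the TSK and 9 of the WT UMIs, and Ppbp gave 9 and 1. Gp1ba and Gp1bb, receptor chains of platelets, were at 0 in both. Without the C1q cells that carried such a marker, the log2 ratio of Pf4 was 2.63.

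Retnla (ENSMUSG00000061100, chr16:48842551-48844461, plus strand) encodes the secreted resistin-like molecule alpha, a STAT6 target in alternatively activated macrophages. It was concentrated in few cells: the 1027 WT UMIs lay in 16 cells (8.29%) and the 1601 TSK UMIs in 50 cells (13.3%). The levels of 356 and 434 CPM gave a log2 ratio of 0.29 (0.17 to 0.40). Among WT cells, 1 held 348 UMIs and 3 cells held 72.0% of the total, against 26.3% in 3 cells of the TSK library. Without the highest cell of each library the ratio was 0.75, and in cells of at most 10000 UMIs it was 2.41.

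Retnla lay in few C1q cells at high counts and Pf4 in many, so the sequences upstream of both genes are shown. They are RefSeq windows of GRCm38.p6, plus strand, 5′ to 3′, with matches to 3 motifs in capitals. The motifs were that of STAT6 (TTC and GAA with any 4 bases between them), the MAF core TGCTGAC and the PU.1 motif GAGGAAGT, each sought on both strands in the 250 bases before the RefSeq start.
Retnla, chr16:48842359-48842550: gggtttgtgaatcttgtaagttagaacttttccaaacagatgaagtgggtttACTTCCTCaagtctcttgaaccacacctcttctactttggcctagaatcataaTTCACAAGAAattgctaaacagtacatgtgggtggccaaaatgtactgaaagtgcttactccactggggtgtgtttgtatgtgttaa
Pf4, chr5:90772185-90772434: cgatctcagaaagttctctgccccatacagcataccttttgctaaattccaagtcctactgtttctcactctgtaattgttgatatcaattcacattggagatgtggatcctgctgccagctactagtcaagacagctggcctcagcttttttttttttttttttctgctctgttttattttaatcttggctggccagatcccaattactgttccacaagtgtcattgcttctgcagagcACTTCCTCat
In Retnla the letters TTCACAAGAA began 145 bases and ACTTCCTC, the PU.1 motif on the other strand, 198 bases before the RefSeq start. The printed window ends where the GENCODE gene begins, and a MAF core match 48 bases before the RefSeq start lies past that end. In Pf4 the PU.1 letters began 10 bases before the start. Timd4 had a MAF core match at 45 bases, Folr2, Cd163, Fcrls, Cbr2 and Mrc1 had no match in their windows, and Lyve1 had no window. Over 32851 windows of this length, 5.85% held the STAT6 motif, 3.81% the MAF core and 2.44% the PU.1 motif.

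**Figure D1:**
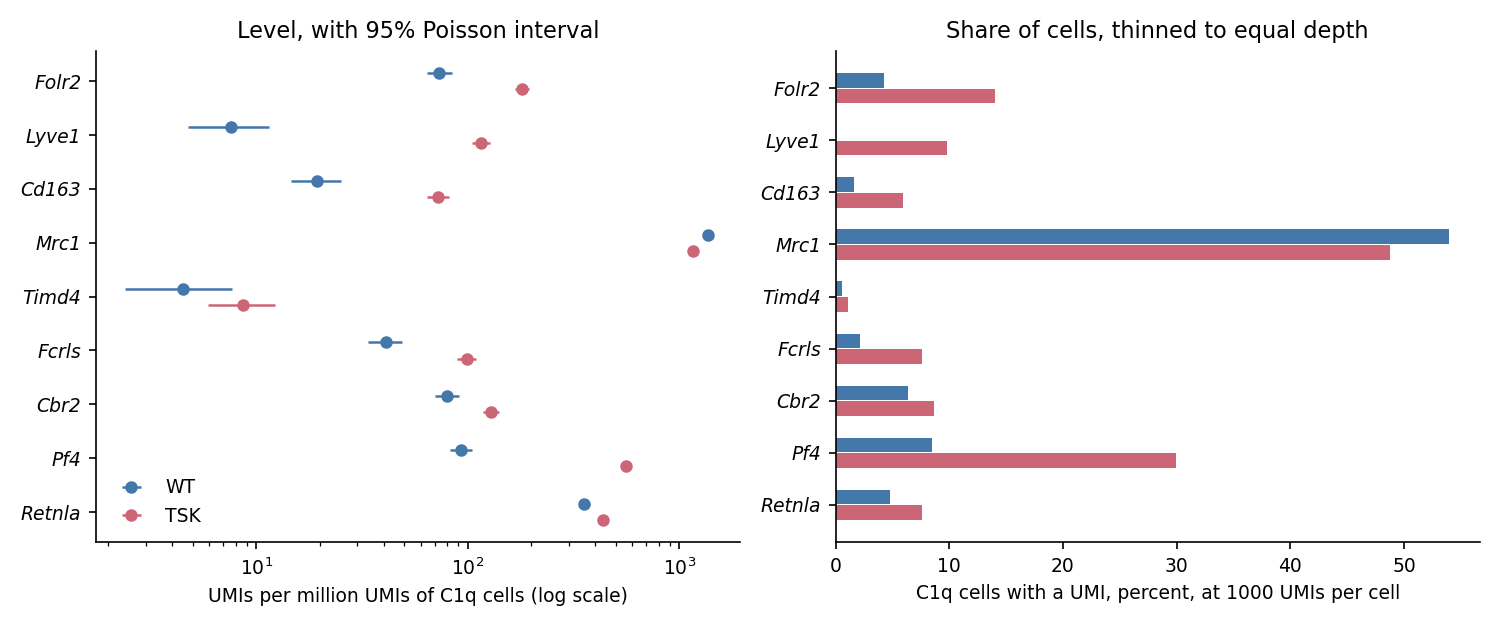
Level of the 9 genes in C1q cells in CPM on a log axis with 95% Poisson intervals (left), and the share of C1q cells with a UMI after thinning to 1000 UMIs per cell in percent (right), in the WT (blue) and TSK (red) library. Mrc1 lies lower in TSK in both panels, and the other 8 genes lie higher. The intervals of the levels overlap only for Timd4. The share of all genes whose intervals overlap is not given, so nothing is read from this.

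Of the 9 genes, 8 had at least 50 UMIs, and 5 of these (Folr2, Lyve1, Cd163, Fcrls and Pf4) were at least 2-fold higher in the TSK library and 0 at least 2-fold lower. Over all 8839 genes 12% were at least 2-fold higher and 2.57% at least 2-fold lower. Since the genes were chosen with this contrast known, nothing is read from the difference. Markers of other cell types also differed between the C1q cells of the libraries. Fibroblast markers summed to 1549 CPM in WT and 580 CPM in TSK, monocyte markers to 1661 and 508 CPM, and cancer cell markers to 17.7 and 387 CPM. Of 9 embryonic genes 4 were detected, at 9.70 and 122 CPM, and Hbb-y, Hba-x, Hbb-bh1, Lin28a and Crabp1 were at 0 in both. H19 gave 8 of the 28 WT and 421 of the 448 TSK UMIs of this list, and it was also among the 10 leading genes of a cancer cell-like cluster. Lin28b (1.04 and 1.36 CPM), Mdk (2.42 and 1.90) and Nnat (3.46 and 4.07) differed little. Only 77 WT and 220 TSK C1q cells held fewer than 2 UMIs of the markers of each other lineage tested. In those cells the log2 ratio was 2.42 for Folr2, 2.94 for Fcrls, 2.82 for Cbr2, 4.40 for Pf4 and -0.11 for Mrc1, and Retnla had a ratio of 4.49. Apart from Mrc1, these ratios rest on few of the 77 WT cells. Cbr2 was found in 4, Retnla in 6, Fcrls in 7, Pf4 in 10 and Folr2 in 11. Pecam1 alone gave 498 of the 509 endothelial marker UMIs of WT C1q cells, and 99 of the 193 cells carried it. The cells left out were therefore not necessarily mixed with another lineage.

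The genes were next followed over all cells. Clustering, which left out the 9 genes, gave 3 macrophage-like clusters, a large one led by Arg1 and C1qa (328 WT and 352 TSK cells), one of low depth (64 and 99 cells, median 1376 UMIs) and a small one led by Ccl8 and F13a1 (27 and 82 cells). In both libraries the small cluster led by Ccl8 had the highest level of Folr2, Lyve1, Cd163, Cbr2, Mrc1 and Pf4 of all 16 clusters, and in the TSK library also of Retnla and Timd4. Lyve1 was nearly restricted to it: in the TSK library it held 405 of 439 Lyve1 UMIs (92.3%), and in the large cluster Lyve1 had 0 WT and 4 TSK UMIs.

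Within the small cluster the libraries still differed. For Lyve1 the level was 64.0 CPM in 27 WT cells (22 UMIs, 8 cells with one) and 607 CPM in 82 TSK cells (405 UMIs, 52 cells), with a log2 ratio of 3.25 (2.63 to 3.94). Cd163 followed at 46.6 and 384 CPM (3.04, 2.32 to 3.87), with 16 WT UMIs in 3 cells, 8 of them in 1. Timd4 had 5.82 CPM (2 UMIs) and 48.0 CPM (32 UMIs). The gaps were narrower for Folr2, with a log2 ratio of 0.92 (0.62 to 1.24), for Cbr2 (0.37, 0.10 to 0.64) and for Mrc1 (0.27, 0.16 to 0.38). Retnla stood at 2331 CPM in WT and at 2056 CPM in TSK cells (-0.18, -0.31 to -0.05), with all 801 WT UMIs in 6 cells and 348 of them in 1. Without the highest cell of each library the sign turned, with 1372 and 1869 CPM (0.45, 0.29 to 0.61). Over 3093 genes that reached 50 UMIs here, 9.31% were at least 2-fold higher in the TSK library and 2.04% lower.

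The large cluster showed another order. Pf4 was at 46.9 CPM in WT and at 529 CPM in TSK cells, apart by 3.49 on the log2 scale (3.27 to 3.73), wider than in the small cluster (1.55, 1.24 to 1.87). Folr2 (1.61, 1.26 to 1.96) and Fcrls (1.66, 1.26 to 2.07) were also higher in the TSK library. Cd163 was lower, with 40 UMIs over 5 cells in WT and 3 UMIs over 2 cells in TSK (-3.21, -5.55 to -1.56). In WT 1 cell held 22 of its UMIs, and without the highest cell of each library 18 and 1 UMIs were left. Mrc1 (-0.29, -0.37 to -0.22) and Retnla (-0.98, -1.38 to -0.61) were also lower. For Retnla this rested on 1 WT cell with 165 of 222 UMIs, without which the WT level was 15.2 CPM against 29.8 CPM in TSK. Without the highest cell of each library the ratio was -0.10 (-0.74 to 0.52). Here 5.38% of 8051 genes were at least 2-fold higher and 2.3% lower.

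**Figure D2:**
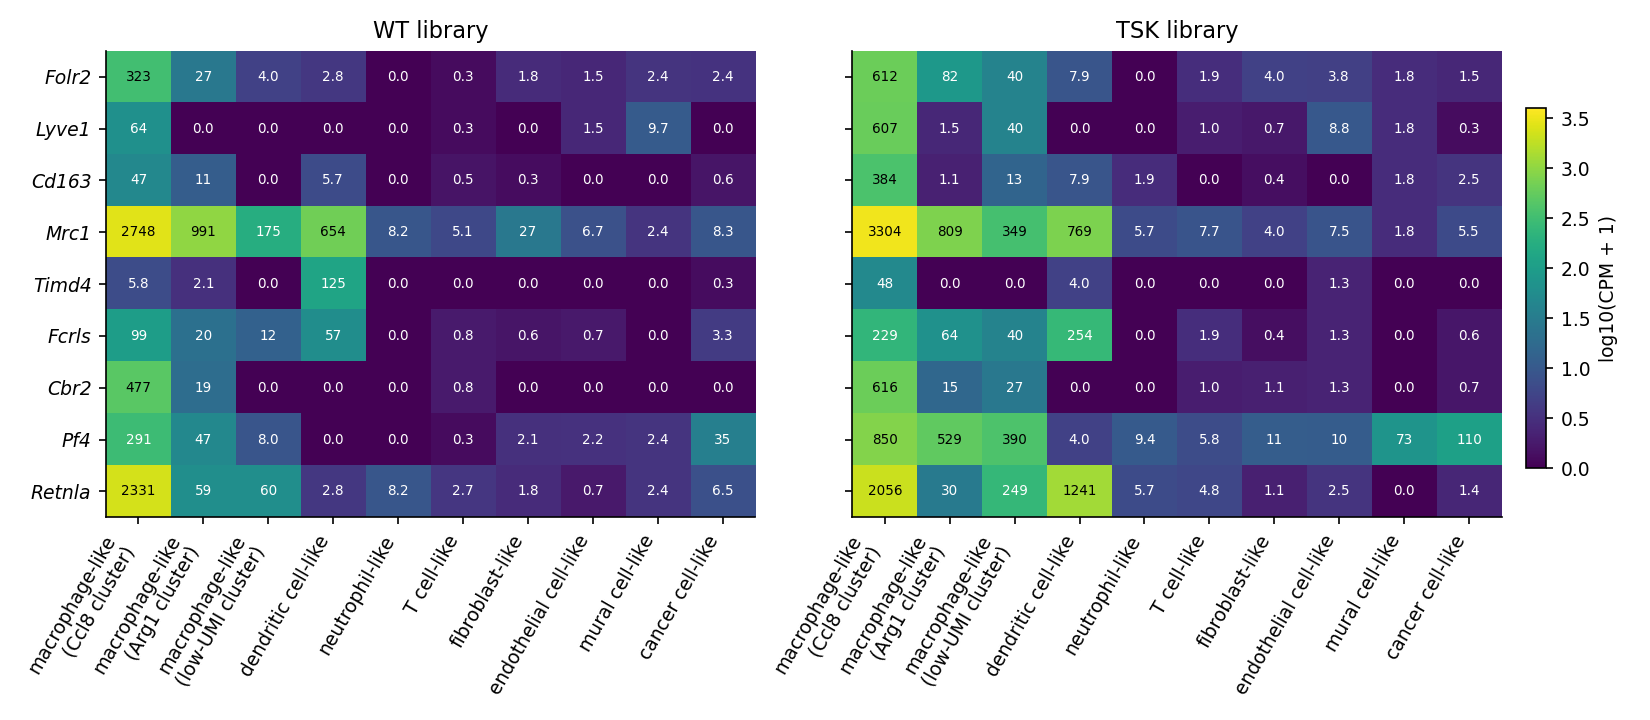
Level of each gene (rows) in CPM, printed in each field and coloured as log10(CPM + 1), in 3 macrophage-like clusters and 7 other cell classes (columns) of the WT (left) and TSK (right) library. The Ccl8 cluster is brightest for most genes, while Pf4 extends to cancer cell-like cells and Timd4, Fcrls and Retnla to dendritic cell-like cells in 1 or both libraries.

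Not all 9 genes followed the macrophage label. C1q cells held from 75.1% to 98.1% of the UMIs of Folr2, Lyve1, Cd163, Fcrls, Cbr2, Mrc1 and Retnla in either library. The lowest of these shares was that of Cd163 in the TSK library. There 72 of 1353 cancer cell-like cells held 87 Cd163 UMIs (24.4%, 2.49 CPM), with at most 3 in a cell. In WT 2 of 152 such cells held 2 UMIs. Pf4 was outside the range of 75.1% to 98.1% in both libraries. C1q cells held 64.3% of its WT and 34.2% of its TSK UMIs, and cancer cell-like cells held 28.3% and 63.3%. Cancer cell-like cells had 118 Pf4 UMIs in 14 of 152 WT cells (35.1 CPM) and 3826 UMIs in 386 of 1353 TSK cells (110 CPM), with up to 199 UMIs in a cell. In the cancer cell-like TSK cells without any C1q UMI the level was 113 CPM, as large as in all of them. In T cell-like cells Pf4 had 0.270 and 5.76 CPM. The largest cancer cell-like cluster had 159 CPM in 9 WT cells and 165 CPM in 539 TSK cells (0.05, -0.30 to 0.43), but 1 cell held 50 of the 64 WT UMIs. Without the highest cell of each library the levels were 39.3 and 155 CPM (1.98, 1.23 to 2.85). Platelet markers had 116 UMIs in the WT and 771 in the TSK cancer cell-like cells, with 0 and 2 of them from Ppbp. Of the 386 Pf4-positive TSK cells, 128 carried such a marker. The part of platelet RNA in the level was not tested.

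Timd4 was outside the range in the WT library, where C1q cells held 23.6% of its 55 UMIs and 6 of 26 dendritic cell-like cells held 44 UMIs (125 CPM). The 53 dendritic cell-like cells of the TSK library held 1 Timd4 UMI. Retnla had the reverse pattern in this class, with 1 UMI in the WT library and 313 UMIs in 6 cells of the TSK library (1241 CPM), 128 of them in 1 cell. Fcrls reached 56.6 CPM (20 UMIs in 3 cells) and 254 CPM (64 UMIs in 6 cells) there, above its mean level in macrophage-like cells of the same libraries (26.1 and 95.4 CPM). These classes are small, and single cells set their levels. An unnamed cluster of 46 cells, all WT and of low depth (median 691 UMIs), held 163 Retnla UMIs in 17 cells. It contained no Folr2, Lyve1, Cd163, Fcrls, Cbr2, Mrc1 or Timd4 UMI.

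The question of whether the 9 genes mark the same cells was addressed by counting them per cell. C1q cells carried a mean of 2 of the 9 genes in WT and 2.78 in TSK. At 1000 UMIs per cell the means were 0.820 and 1.33, although the WT cells were the deeper ones before thinning. At full depth the WT cell with most held 8 of the 9, and 4 TSK cells held all 9. At least 5 of the 9 were found in 17 WT cells (8.81%) and 83 TSK cells (22.0%).

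**Figure D3:**
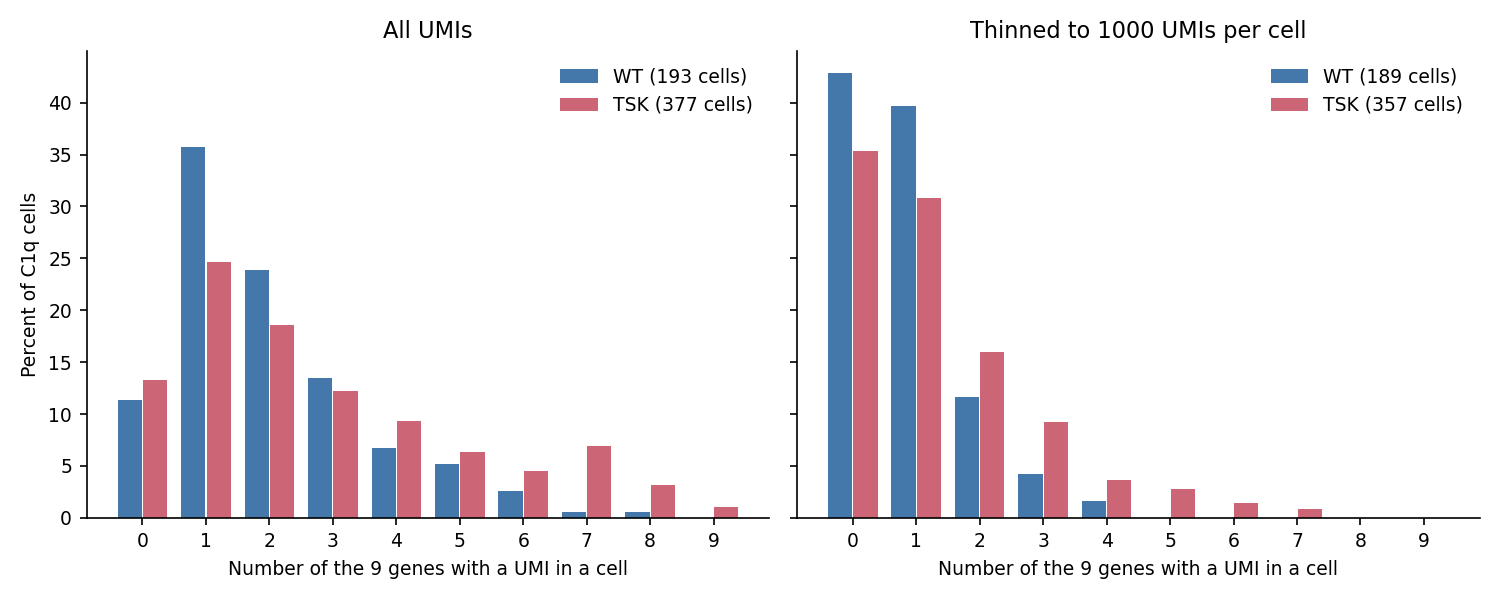
Percent of C1q cells by the number of the 9 genes with at least 1 UMI in the cell, for all UMIs (left) and after thinning each cell to 1000 UMIs (right), in the WT (blue) and TSK (red) library. Cells with 7 or more of the genes at full depth are mostly TSK cells, and after thinning cells with 5 or more are TSK cells.

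Pairs of the genes were found in the same cell more often than the product of their shares. This held for 35 of the 36 pairs in WT and all 36 pairs in TSK C1q cells. The share of pairs of other genes above the product is not given, so nothing is read from these counts. In the TSK library Lyve1 and Cd163 shared 34 cells where the product gives 8.12, a ratio of 4.19, so that 56.7% of the Lyve1 cells carried Cd163 and 66.7% of the Cd163 cells carried Lyve1. Lyve1 and Cbr2 shared 51 cells against 15.8, and Folr2 and Fcrls shared 97 against 52.4. Of the 14 Timd4 cells of the TSK library, 14 carried Folr2 and 13 carried Lyve1. Among the resident genes other than Mrc1, Folr2 was found in the most cells, and most Lyve1, Cd163 and Timd4 cells of the TSK library were Folr2 cells.

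In the WT library the overlaps rested on fewer cells. All 8 Lyve1 cells carried Cbr2 and 7 carried Folr2. Lyve1 and Cd163 shared 1 cell where the product gives 0.33, a ratio of 3.02. Over the 10 pairs of Folr2, Lyve1, Cd163, Fcrls and Cbr2 the median ratio was 2.76 in WT and 2.08 in TSK cells. Cbr2 and Retnla, found together in 3 cells, were the pair not above the product (0.98). Of the Retnla cells, 5 of 16 in WT and 39 of 50 in TSK carried Folr2, which 24.9% and 44.0% of all C1q cells carried, so the ratios to the product were 1.26 and 1.77. Mrc1 was so widely detected that its pairs could exceed the product only slightly, by ratios of 1.08 to 1.16 in WT and 1.18 to 1.39 in TSK cells. Cells with more UMIs hold more of every gene, and at 1000 UMIs per cell 34 of 36 pairs were above the product in TSK cells and 19 of 36 in WT cells. Only 2 WT pairs then had a product of at least 5 cells, and the pairs with Lyve1, which had no UMI left in WT cells, could not be seen, so little can be read from the thinned WT pairs.

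**Figure D4:**
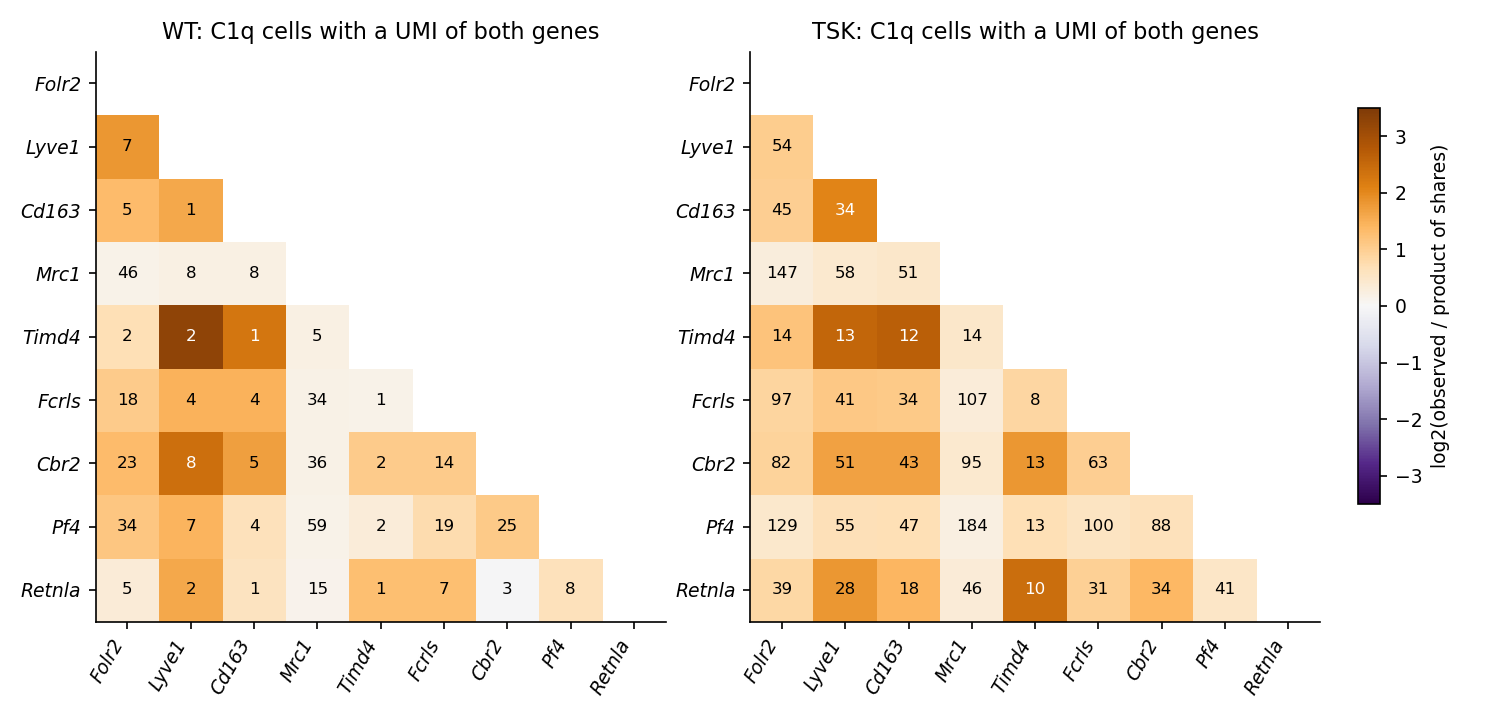
Number of C1q cells with a UMI of both genes of a pair (printed), coloured by log2 of the observed number over the product of the shares of the genes, in the WT (left) and TSK (right) library. Nearly all pairs are above 0. In the TSK library the pairs among Lyve1, Cd163, Timd4 and Cbr2, with 12 to 51 cells each, are all at more than 3 times the product. The share of pairs of other genes above 0 is not given, so nothing is read from their number.

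Cells with a UMI of at least 2 of the 6 genes Folr2, Lyve1, Cd163, Fcrls, Cbr2 and Timd4, termed core-positive, allowed Mrc1, Pf4 and Retnla to be read apart from the genes that chose the cells. Core-positive cells were 38 of 193 WT C1q cells (19.7%, 14.3% to 26.0%) and 130 of 377 TSK C1q cells (34.5%, 29.7% to 39.5%). At 1000 UMIs per cell the counts were 5 of 189 (2.65%) and 44 of 357 (12.3%). Core-positive cells were deeper than the other C1q cells, with medians of 18656 against 11871 UMIs in WT and 9824 against 6711 in TSK. Of the C1q cells of the small cluster led by Ccl8, 18 of 27 WT and 74 of 82 TSK cells were core-positive.

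Retnla had 947 CPM in core-positive and 154 CPM in other WT cells, and 937 against 45.2 CPM in TSK cells. The log2 ratios of core-positive over other cells were 2.62 (2.43 to 2.82) and 4.37 (4.07 to 4.69), so Retnla was higher in core-positive cells of both libraries, although only 4 of 38 WT core-positive cells carried it. Pf4 was also higher in them, with 173 against 65.5 CPM in WT and 747 against 418 CPM in TSK cells. Mrc1 had 1926 against 1172 CPM in WT and 1748 against 717 CPM in TSK cells. In each library 2 of these 3 genes were at least 2-fold higher in core-positive cells and 0 lower. Over all genes, 2.94% of 5957 were higher and 5.47% lower in WT, and 2.89% of 7467 higher and 3.03% lower in TSK. C1qa, C1qb and C1qc were also higher in core-positive cells, by 1.04, 0.81 and 1.09 in WT and 0.66, 0.37 and 0.65 in TSK. Fibroblast markers were lower in core-positive than in other cells, with 370 against 1952 CPM in WT and 111 against 943 CPM in TSK. The part of these differences in the gaps of Retnla, Pf4 and Mrc1 was not tested.

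Between the libraries Retnla, Pf4 and Mrc1 differed in where the gap lay. Pf4 was higher in the TSK library in core-positive cells, by 2.11 on the log2 scale (1.85 to 2.39), and in the other cells, by 2.67 (2.42 to 2.94). Retnla had a ratio of -0.01 (-0.15 to 0.12) in core-positive cells, but 1 cell held 348 of the 696 WT UMIs. Without the highest cell of each library its levels there were 482 and 854 CPM, a higher TSK level by 0.82 (0.65 to 1.0). In the other cells Retnla was lower in the TSK library (-1.77, -2.11 to -1.43), where 1 of 12 WT cells held 165 of 331 UMIs. Without that cell the WT level was 77.8 CPM, and without the highest cell of each library the ratio was -1.61 (-2.08 to -1.15). Mrc1 was slightly lower in TSK core-positive cells (-0.14, -0.23 to -0.05) and more so in the other cells (-0.71, -0.80 to -0.62). Core-positive cells held 94.1% of the TSK and 67.8% of the WT Retnla UMIs.

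**Figure D5:**
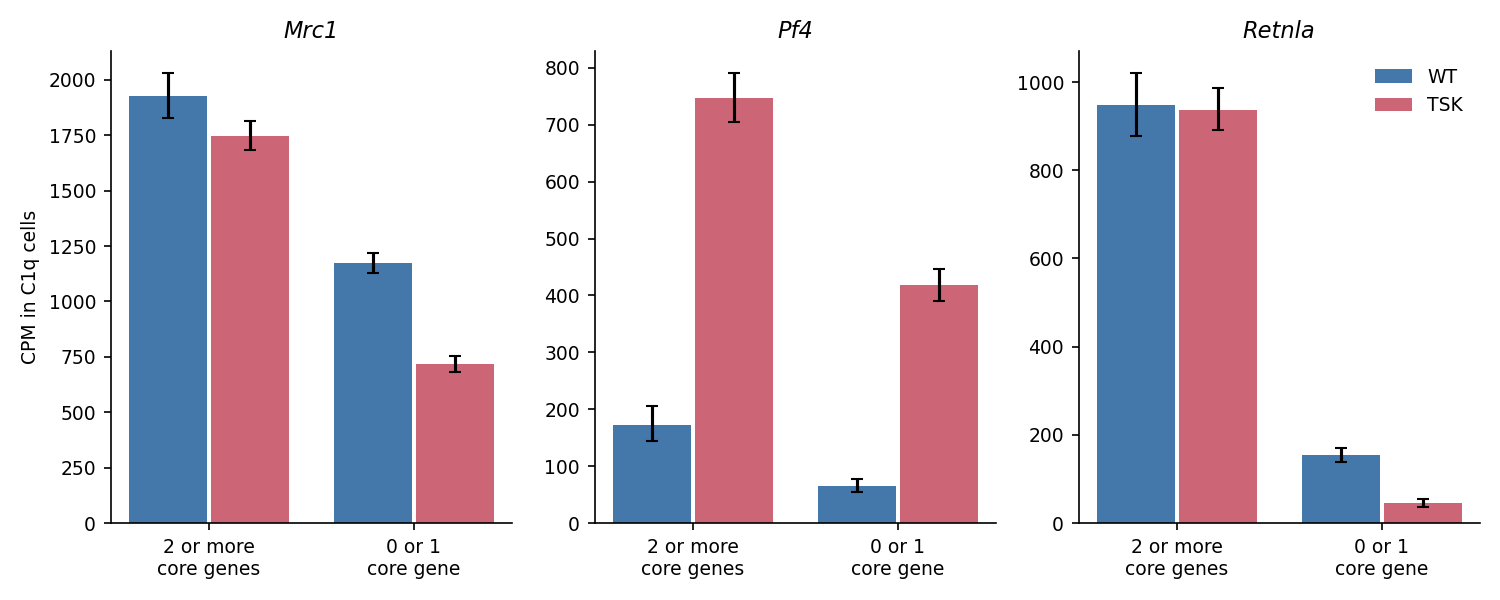
Level of Mrc1, Pf4 and Retnla in CPM, with 95% Poisson intervals as error bars, in C1q cells with at least 2 and with 0 or 1 of the 6 core genes, in the WT (blue) and TSK (red) library. Pf4 is higher in TSK in both kinds of cell, and the Retnla bars of core-positive cells (947 and 937 CPM) overlap in their intervals, the WT bar with 348 of 696 UMIs from 1 cell.

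The genes whose pattern was most like that of the core genes were ranked among 3846 genes by the smaller of the log2 ratios of core-positive over other C1q cells in the 2 libraries. The first 10 were Clec10a, Fcgrt, Selenop, Pdgfc, F13a1, Ccl8, Pmp22, Wwp1, Lifr and Slc9a9, with smaller ratios from 2.62 down to 1.73. Clec10a, a lectin receptor of macrophages and dendritic cells, had 239 against 39.0 CPM in WT and 137 against 10.6 CPM in TSK cells. Fcgrt, the neonatal Fc receptor, had 280 against 46.5 CPM and 353 against 47.6 CPM. Selenop, a selenium carrier, had 992 against 212 CPM and 996 against 158 CPM. Of the 10 genes, F13a1 (1.55, 1.44 to 1.67), a clotting factor chain, Pmp22 (1.32, 1.01 to 1.63) and Wwp1 (1.03, 0.73 to 1.34) were at least 2-fold higher in all TSK C1q cells, and Clec10a (-0.45, -0.71 to -0.19) and Lifr (-0.38, -0.70 to -0.06), a cytokine receptor, were lower.

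Other genes of resident and perivascular macrophages were higher in part. Of 22 listed genes 17 had at least 50 UMIs, 5 were at least 2-fold higher in the TSK library and 1 lower, with a median log2 ratio of 0.56. Over all 8839 genes 12% were higher and 2.57% lower, with a median of 0.23, and the same values stand beside the counts of each list that follows. Ednrb, an endothelin receptor, had 12.5 and 94.7 CPM (2.92, 2.43 to 3.46), and Cd209d, a lectin, had 3.46 and 20.1 CPM (2.54, 1.58 to 3.65). Ltc4s, the leukotriene C4 synthase, had 7.97 and 31.7 CPM (1.99, 1.34 to 2.71). Ccl24, an eosinophil chemokine, went the other way, at 662 CPM in WT and 108 CPM in TSK cells (-2.61, -2.77 to -2.46). In core-positive over other cells, 14 of the 17 genes were at least 2-fold higher in WT and 14 in TSK cells. Over all genes the shares were 2.94% and 2.89%. The limit of 50 UMIs was set over both libraries for the 17 genes but within each library for all genes. Of the 14 genes, Cd209d (10 UMIs), Ltc4s (23), Cd209g (24) and Ednrb (36) were under it in WT. Cd209g (42) was under it in TSK, so counts and shares are not on equal terms.

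The other genes of alternative activation were not higher in the TSK library. Of 13 listed genes, 1 of which was not analysed here, 9 had at least 50 UMIs, 0 were at least 2-fold higher and 4 were at least 2-fold lower, beside 12% and 2.57% of all genes, and the median was -0.58 against 0.23. Ccl17, a T cell chemokine, had 131 and 9.49 CPM (-3.79, -4.33 to -3.28), and Chil3, a chitinase-like lectin, had 909 and 176 CPM (-2.37, -2.50 to -2.25). Mgl2, a lectin receptor, was lower by -1.51 (-1.73 to -1.30) and Pdcd1lg2, the checkpoint ligand PD-L2, by -1.45 (-1.74 to -1.16).  Monocyte markers summed to 1661 CPM in WT and 508 CPM in TSK C1q cells, but Chil3 is itself on that list and gave 909 and 176 CPM of the sums. The other markers on the list were also lower: Ly6c2 (98.4 and 27.4 CPM), Ccr2 (285 and 102), Plac8 (198 and 89.2), Vcan (59.9 and 29.3) and F10 (110 and 84.6). The part of monocyte RNA in the values of this paragraph was not tested.

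In the interleukin-4, interleukin-13 and STAT6 axis 13 of 15 genes had at least 50 UMIs, 0 were at least 2-fold higher and 2 lower, the cytokine Il33 (14.9 and 3.80 CPM, -1.97, -2.96 to -1.07) and the signal inhibitor Socs1 (55.1 and 20.9 CPM, -1.40, -1.81 to -1.0). Cish, another inhibitor, and Irf4, a transcription factor of alternative activation, had ratios of -0.97 and -0.98. Chosen after their values were seen, the receptor gene Il4ra had 205 and 278 CPM and Stat6 51.3 and 48.0 CPM. The cytokine gene Il13 had no UMI in C1q cells, which allows up to 1.04 CPM in WT and 0.814 CPM in TSK cells.

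Among 24 relatives and partners of the 9 genes, 10 had at least 50 UMIs, 3 were at least 2-fold higher and 0 lower. Hmox1, heme oxygenase, which degrades the heme that Cd163 takes up, had 274 and 648 CPM (1.24, 1.12 to 1.36). Mertk, a receptor for dying cells, had 66.8 and 145 CPM (1.12, 0.88 to 1.36), and Hmmr, a hyaluronan-binding protein of dividing cells, had 8.31 and 27.7 CPM (1.74, 1.08 to 2.44). Has1, a hyaluronan synthase, was at -0.88 (-1.49 to -0.28). In the CSF1 receptor axis Csf1r was at 300.3 and 282 CPM (-0.09, -0.22 to 0.04), and the ligand Csf1 was lower (-1.35, -2.08 to -0.66), 1 of 4 genes with at least 50 UMIs.

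Genes of antigen presentation were lower and those of lipid-associated macrophages mostly within 2-fold. All 7 MHC class II genes had at least 50 UMIs and 5 were at least 2-fold lower in the TSK library, with a median of -1.07. Cd74, the invariant chain, had 7034 and 3341 CPM (-1.07, -1.11 to -1.04), and Ciita, the master regulator of the class, 47.4 and 15.2 CPM (-1.64, -2.12 to -1.18). In core-positive over other cells 0 of the 7 genes were 2-fold apart in either library. Of 12 lipid-associated genes 1 was at least 2-fold higher, Gpnmb, a lysosomal glycoprotein, with 4.85 and 60.2 CPM (3.63, 2.86 to 4.53), while Ctsd, the protease cathepsin D, was at 0.99 (0.92 to 1.06). Of 8 measured inflammatory genes 0 were 2-fold apart. Nos2, the inducible nitric oxide synthase, was at 0.61 (0.41 to 0.81) and Il1b at -0.62 (-0.74 to -0.50).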

How the data were processed

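The authors dissociated and pooled tumors by genotype and made 1 single-cell 3′ library per genotype (10x Genomics). Raw UMI counts per gene and barcode were deposited from Cell Ranger (7.1.0 per the file headers, 7.1.1 with mm10 per the labels). Of the gene identifiers, 99.6% matched GENCODE M21. Cells with at least 200 genes, at least 500 UMIs and at most 10% mitochondrial UMIs were kept. The upper limit of 10000 UMIs used by the authors was an alternative only, since 65.3% of WT and 35.0% of TSK C1q cells exceed it. No doublet caller was run.

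Cells were clustered without the 9 genes and sex-linked genes (2000 variable genes, 30 components, 20 neighbours, Leiden resolution 1; leidenalg 0.10.2, igraph 0.11.9, scipy 1.17.1) and named from marker lists, and other markers could change the names. Intervals (95%) were exact binomial, Poisson or conditional, a count of 0 was taken to allow 3, and ratios were tested on simulated data. The simulated counts were Poisson, the model the intervals assume. They cannot show how the intervals hold where a few cells carry most UMIs of a gene. The genes and lists were chosen with earlier results of these data known. Named beside the 9 genes are up to 4 genes per list with the largest ratios and at least 50 UMIs, and the 10 genes most like the core genes with at least 100 UMIs in each library. CPM of 3′ counts was not divided by gene length. Alternatives covered the choice of cells, depth, scaling, other lineages and the gate.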

Additional observations from a re-analysis of the deposited data

Results flagged for a closer look

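Barcodes found in both libraries were left out of all comparisons, and 251 of them passed the cell filter in WT and 255 in TSK. They held more than the 3 UMIs that a count of 0 allows for 4 of the 9 genes. In the WT library these were 7 UMIs of Folr2, 8 UMIs of Cd163, 166 UMIs of Mrc1 in 8 cells and 90 UMIs of Pf4 in 11 cells. In the TSK library they held 5 UMIs of Pf4 in 5 cells. Of these barcodes, 5 WT and 0 TSK ones were C1q cells, and with them kept the log2 ratio of Pf4 in C1q cells was 2.65 in place of 2.60 and that of Mrc1 -0.20 in place of -0.23.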

How the results depend on the processing

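Without any replicate library, the intervals do not cover differences between mice, and a depth of 8067 to 13156 UMIs per C1q cell leaves genes such as Timd4 below firm counting. No paired analysis was possible because each genotype has 1 library. The number of the 9 genes at least 2-fold higher in the TSK library lay between 5 and 7 under all 14 alternatives, of which those without the highest cell of each gene and without C1q cells of cancer cell-like clusters were added after seeing the data. The share of all genes past 2-fold under the other choices of cells is not given, so nothing is read from this range.

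For Mrc1 the log2 ratio changed sign to 0.23 in macrophage-like clusters, 0.02 without cells with an embryonic marker, 0.00 without cells with a platelet marker and 0.03 without C1q cells of cancer cell-like clusters. That of Retnla changed to -1.77 without core-positive cells and, in the small cluster led by Ccl8, from -0.18 to 0.45 without the highest cell of each library, an alternative added after seeing the data. The causes were not tested. The ratios of Folr2, Lyve1, Cd163, Fcrls, Cbr2, Pf4 and Timd4 in C1q cells kept their direction, from 0.26 for Timd4 upward. The log2 ratio of the core-positive share, 0.81, was 0.43 (0.05 to 0.82) with at least 1 core gene (40.9% and 55.2% of cells), 1.45 with at least 3 core genes, 2.22 at 1000 UMIs per cell, 1.94 in cells of at most 10000 UMIs, 2.21 without cells with markers of other lineages and 1.66 without Fcrls and Cbr2 in the gate. The pairs at 2 or more times the product were 19 in WT cells, 10 at 1000 UMIs per cell and 6 without cells with markers of other lineages. Macrophage-like cells held 88.86% of the WT and 65.99% of the TSK UMIs of the 9 genes, with 92.71% and 69.68% at a Leiden resolution of 0.5 and 75.75% and 65.01% at 2. With no minimum count, 16 of 99 list genes in place of 9 of 79 were at least 2-fold higher and 21 in place of 13 lower, while the shares of all genes went from 12% to 24.8% and from 2.57% to 14.7%.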
